A study of Danio rerio with 15 samples.

Results

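The zebrafish genes with a znf symbol and a number were followed through zygotic genome activation, in wildtype embryos and in embryos with altered nuclear pore genes. A row was taken as a member where its symbol was znf followed by a number and where its mean level over the 15 libraries was at least 1 FPKM (fragments per kilobase of transcript, scaled for library size). Of 338 such rows, 233 passed this limit and 105 did not, out of 13493 genes at that level among 23726 in all. The 233 members carried 213 different symbols, and 38 members shared a symbol with another member, so these are given with their Ensembl gene identifiers. A 4-digit symbol, znf1000 or above, was carried by 135 members, and a shorter number by 98.

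Most znf genes encode C2H2 zinc finger proteins, in which each finger folds around a zinc ion and can read a few bases of DNA. Many of the zebrafish genes with high numbers are recent tandem copies that resemble one another closely, and little is known of what single copies do. In the early zebrafish embryo, RNA laid down by the mother runs the first cell cycles, and it is then cleared while the embryo starts to transcribe its own genome. A znf transcript can therefore be a maternal store, a product of the embryo, or both. Because copies are alike, reads may have been split between them, and a gene listed at 0 beside a high copy is uncertain.

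RNA came from dechorionated whole embryos collected 3, 4 or 4.5 hours post fertilization (hpf), with 5 libraries per stage. One wildtype library was the control for the line labelled MZnup133, a nup133 knockout, and for the line labelled Tgnup133, a transgenic overexpression of nup133; these form the nup133 set. A second wildtype library was the control for Melys, labelled an elys knockout, and these form the elys set. Strain, alleles, the promoter of the transgene and the number of embryos pooled are not stated in the labels. Each mutant or transgenic line had 1 library per stage. No line thus has a repeat at any stage, and its scatter was borrowed from wildtype. The fit at single stages takes out any difference between the wildtype sets that is common to the 3 stages. Its p-values therefore measure only how that difference changes from stage to stage, which may be technical, not the full spread within each wildtype pair. Over 3 stages the spread is how far each line's difference from its matched wildtype varies between stages.

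The level of nup133 RNA was 0.431, 0 and 0.208 FPKM in MZnup133 at 3, 4 and 4.5 hpf, against 9.35 to 13.1 FPKM in the wildtype libraries and 16.4 to 18.4 FPKM in Tgnup133. The RNA of ahctf1, the zebrafish name of elys, was 13.5, 25.8 and 24.1 FPKM in Melys and 18.7, 26.8 and 19.5 FPKM in matched wildtype, so the RNA level did not check that label. The summed FPKM per library ranged from 508714.6 to 575118.3, and 12356 to 13057 genes per library reached 1 FPKM. Read depth is unknown. All 4 blastula markers (pou5f3, nanog, sox19b and h1m) exceeded 29 FPKM in every library, while the 4 rows found for adult tissues summed to at most 7.37 FPKM. Of the total FPKM, the 233 members took 0.549% to 0.792%.

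The members were put into classes by set limits on their wildtype levels. From the mean of both wildtype libraries, 131 were maternal, meaning at least 1 FPKM at 3 hpf with a rise to 4.5 hpf of under 1 on the log2(FPKM + 1) scale. Another 19 were present at 3 hpf and rose by at least 1, and 75 were newly transcribed, under 1 FPKM at 3 hpf and at least 1 FPKM at 4.5 hpf. The remaining 8 fitted no class. Symbols with 4 digits made up 89.3% of the newly transcribed class (67 of 75) and 38.2% of the maternal class (50 of 131). The classes were built from the wildtype change, so wildtype counts by class are a description. When each wildtype set was used alone, 187 members kept their class and 46 changed it, and 60 were newly transcribed in both.

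**Figure D1:**
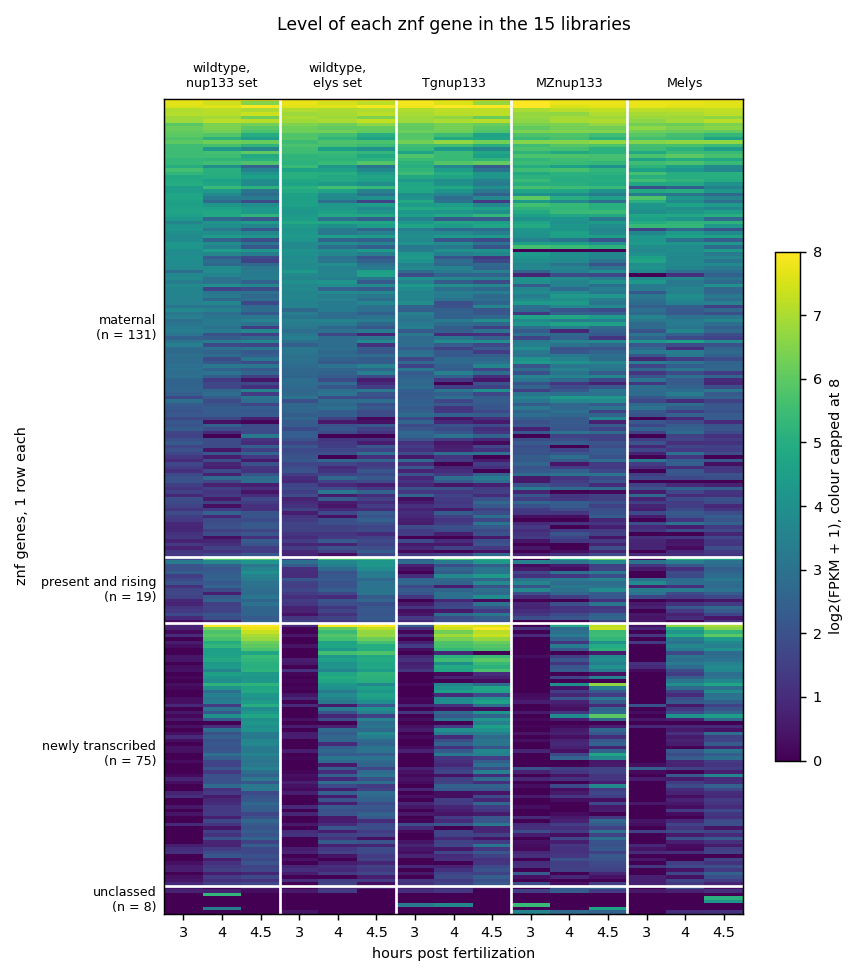
Level of each of the 233 znf genes, 1 row per gene, as log2(FPKM + 1) in the 15 libraries, ordered by genotype and hours post fertilization; rows are grouped by class and sorted by wildtype level. The 75 newly transcribed genes are dark in every 3 hpf column and light up at 4 and 4.5 hpf, more faintly in MZnup133 and Melys.

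The newly transcribed znf genes went from near silence to a large pool within the period sampled. Their summed level was 20.6 FPKM in both wildtype sets at 3 hpf. At 4 hpf it was 1001 FPKM in the nup133 set and 951 FPKM in the elys set, and at 4.5 hpf 1945 and 1495 FPKM. The sum of the 131 maternal members was 2826 and 2888 FPKM at 3 hpf, 2709 and 2685 FPKM at 4 hpf, and 2395 and 2593 FPKM at 4.5 hpf. The wildtype sets were furthest apart in the newly transcribed pool at the last stage. There the elys set was lower for 54 of 75 members, with a median difference of -0.39 (log2), against 0.14 in the maternal class.

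The single highest newly transcribed member was znf1004 (ENSDARG00000097098). It was at 0.790, 270 and 377 FPKM at 3, 4 and 4.5 hpf in wildtype of the nup133 set, and at 0.956, 249 and 338 FPKM in wildtype of the elys set. In Tgnup133 it was at 4.04, 205 and 185 FPKM. In MZnup133 it was at 3.45e-13, 26.0 and 146 FPKM, and in Melys at 0.298, 95.7 and 126 FPKM. All 3 lines lay below both wildtype libraries at 4 and at 4.5 hpf, with Tgnup133 the nearest to them. The wildtype rise to 4.5 hpf was 7.58 ± 0.12 (log2, SE), the largest among all 233 members.

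By their mean wildtype level at 4.5 hpf, 6 newly transcribed members lay at 50 FPKM or more. These were znf1004, znf1063, znf1060, znf1065, znf1145 and znf1137 (ENSDARG00000086296). None has a role stated here, and they rise as a group of numbered copies. Wildtype znf1063 went from 0.663 to 84.0 and 218 FPKM in the nup133 set, and from 0.109 to 68.9 and 150 FPKM in the elys set. It was at 167 and 312 FPKM in Tgnup133 at 4 and 4.5 hpf, at 5.96 and 159 FPKM in MZnup133, and at 31.3 and 94.1 FPKM in Melys. The order at 4 hpf was Tgnup133 highest, then both wildtypes, then Melys, then MZnup133.

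The same order at 4 hpf held for znf1060, znf1065 and znf1145. Wildtype znf1060 reached 52.0 and 43.2 FPKM at 4 hpf and 157 and 103 FPKM at 4.5 hpf, against 6.55 and 42.4 FPKM in MZnup133 and 17.0 and 38.6 FPKM in Melys. Wildtype znf1145 was listed at 0 at 3 hpf in both sets and reached 107 and 73.2 FPKM at 4.5 hpf, with 106 FPKM in Tgnup133, 37.2 FPKM in MZnup133 and 19.8 FPKM in Melys. All 4 genes were below both wildtype libraries in Melys at both later stages.

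A further 15 newly transcribed members had a mean wildtype level of 20.9 to 45.9 FPKM. They were znf1138, znf995 (ENSDARG00000109864), znf1044, znf1096, znf1020, znf1064, znf1137 (ENSDARG00000094017), znf1041, znf999, znf1043, znf995 (ENSDARG00000112126), znf1127, znf1042, znf1062 and znf1055. Another 25 lay between 5.01 and 18.3 FPKM. They were znf1098, znf1040, znf1183 (ENSDARG00000111614), znf1047 (ENSDARG00000092938), znf1053, znf1050, znf281a, znf1146 (ENSDARG00000096014), znf185, znf1099, znf1066, znf569l, znf1073, znf1061, znf1056, znf1059, znf1058, znf1125, znf1077, znf1072, znf1170, znf1001 (ENSDARG00000103777), znf1087, znf1148 and znf1101.

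Among these, 2 are better known. Human ZNF281 is a transcriptional regulator in pluripotent cells, and human ZNF185 encodes an actin-associated LIM domain protein. Wildtype znf281a rose from 0.453 and 0.281 FPKM at 3 hpf to 14.7 and 10.7 FPKM at 4.5 hpf, while its paralogue znf281b was maternal and stayed between 124 and 150 FPKM in all 15 libraries. Wildtype znf185 was at 1.13 and 0.719 FPKM at 4 hpf and at 14.5 and 7.68 FPKM at 4.5 hpf, with 22.0 FPKM in Tgnup133, 0.582 FPKM in MZnup133 and 0.960 FPKM in Melys. It therefore came on between 4 and 4.5 hpf, later than the leading numbered genes, and Tgnup133 alone exceeded wildtype.

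The 23 members between 2.03 and 4.98 FPKM were znf1102, znf1119, znf1082, znf1179, znf1146 (ENSDARG00000113294), znf1104, znf1097, znf1046, znf1136, znf1140, znf1068, znf1021, znf1164, znf1135, znf1093, znf1126, znf997, znf1095, znf1057, znf1009 (ENSDARG00000105831), znf1115 (ENSDARG00000088640), znf1172 and znf993. The lowest 6, at 1.23 to 1.97 FPKM, were znf1184, znf1085 (ENSDARG00000101842), znf1175, znf1033, znf1124 and znf1012. At these low levels the class was less stable, and znf1012, znf1033, znf1095, znf1126 and znf993 fitted no class in wildtype of the elys set alone.

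**Figure D2:**
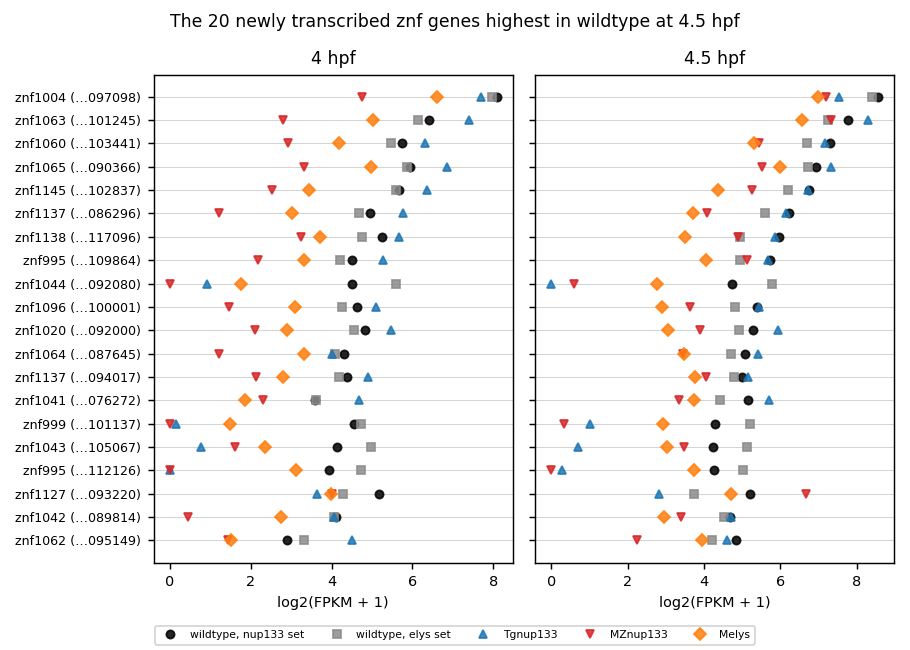
Level, as log2(FPKM + 1), of the 20 newly transcribed znf genes with the highest wildtype mean at 4.5 hpf, at 4 hpf (left) and 4.5 hpf (right); each point is 1 library and each row ends in the last digits of the Ensembl identifier. MZnup133 and Melys points sit left of both wildtype points in most rows, and in the rows for znf1044, znf999 and znf995 (ENSDARG00000112126) the Tgnup133 point is also near 0.

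Between 3 and 4.5 hpf in wildtype, 112 of 233 members passed the threshold (limma on log2(FPKM + 1), two-sided, Benjamini-Hochberg adjusted p under 0.05 over 13493 genes), against 37.0% of all genes tested. Of these, 82 rose and 30 fell, against 14.1% of all genes called higher and 22.8% called lower. With median-ratio scaling 99 rose and 24 fell, and the split over all genes turned to 22.4% higher and 17.4% lower. Members under 1 FPKM at 3 hpf reached the limit for inclusion through the later stages, so their rises are a description. Of the 75 newly transcribed members, 62 were called higher and the rest were not called. Among the 4-digit members 65 rose and 5 fell, with a median change of 1.26 (log2). Among the members with shorter numbers 17 rose and 25 fell, with a median of -0.31, while the median of all genes was -0.16. With median-ratio scaling these medians were 1.44, -0.08 and 0.07. By 4 hpf 36 had already risen and 8 had fallen, against 6.94% of all genes called (3.61% higher and 3.34% lower). From 4 to 4.5 hpf 7 rose and 3 fell, against 5.0% of all genes (1.76% higher and 3.23% lower).

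The wildtype counts depended on single libraries, because each stage had only a pair. With 1 wildtype library left out, the calls over all genes fell in every such fit as well. Leaving out 1 wildtype library left 44 (without wildtype of the nup133 set at 3 hpf) to 81 calls from 3 to 4.5 hpf and 0 to 16 from 3 to 4 hpf. It left none from 4 to 4.5 hpf. For the step from 4 to 4.5 hpf, median-ratio scaling gave 10 higher and 2 lower, against 2.70% higher and 1.79% lower over all genes.

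The 10 largest rises were all in newly transcribed members. Behind znf1004 came znf1063 (7.07 ± 0.14), znf1060 (6.90 ± 0.19), znf1145 (6.48 ± 0.22) and znf1065 (6.07 ± 0.17), each on the log2 scale with its SE. Then came znf1137 (ENSDARG00000086296), znf995 (ENSDARG00000109864), znf1044, znf1138 and znf1096, with rises of 5.59 down to 4.87. Among the 19 members present at 3 hpf that rose, znf1091 stood out, with 2.54, 57.1 and 56.9 FPKM in one wildtype series and 2.0, 48.6 and 44.4 FPKM in the other. Its level was already at its plateau at 4 hpf in both sets. The other 18 of that class lay at 2.76 to 17.9 FPKM at 4.5 hpf in every wildtype library.

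From 4 to 4.5 hpf the 7 members that rose were znf1146 (ENSDARG00000096014), znf185, znf1053, znf281a, znf1001 (ENSDARG00000103777), znf1060 and znf1063. The largest of these steps was that of znf1146 (ENSDARG00000096014), which was listed at 0 at 3 and 4 hpf in every library. It reached the limit for inclusion only through 3 libraries at 4.5 hpf, so its values are given without a test. At 4.5 hpf it was at 17.8 and 6.42 FPKM in wildtype and 10.1 FPKM in Tgnup133, and listed at 0 in MZnup133 and Melys. The 3 members that fell over this step were znf609a, znf644a and znf292b.

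Maternal members ranged from 1.15 to 285 FPKM at 3 hpf (mean of both wildtypes), with a median of 8.42 FPKM, and 13 were at 50 FPKM or more. The highest was znf395a, at 277 to 400 FPKM in all 15 libraries. It was followed by znf706, by znf346, whose human protein binds double-stranded RNA, by znf281b, and by znf207a, whose human protein acts in spindle assembly. These abundant messages changed little in wildtype: znf395a, znf346 and znf207a passed the threshold with rises of 0.29, 0.32 and 0.30 (log2). By contrast, znf706 fell from 203 to 91.4 FPKM in one set and from 210 to 146 FPKM in the other.

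The 10 members that fell most in wildtype from 3 to 4.5 hpf were znf652, znf609a, znf106b, znf711, znf395b, znf296, znf687a, znf236, znf513a and znf1143. By the class limits, members with falls of this size could only be maternal. Of the 10, 9 carried a shorter number. Human ZNF652 and ZNF711 are DNA-binding regulators, the second tied to a histone demethylase. Wildtype znf652 went from 23.1 to 5.68 and 2.66 FPKM in one set and from 23.1 to 6.50 and 2.10 FPKM in the other, a fall of 2.84 on the log2 scale with SE 0.20 (adjusted p = 0.00281, limma). At 4.5 hpf it was at 1.56 FPKM in Tgnup133, 6.20 FPKM in MZnup133 and 6.56 FPKM in Melys. Wildtype znf711 fell from 18.2 to 3.55 and from 21.2 to 4.30 FPKM, and stood at 8.40 FPKM in MZnup133 and 6.0 FPKM in Melys at 4.5 hpf. For both genes MZnup133 and Melys at 4.5 hpf lay above each wildtype library of that stage.

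**Figure D3:**
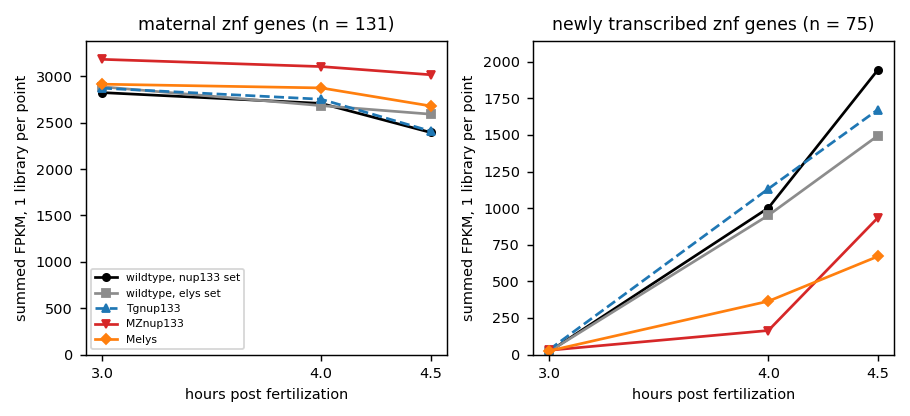
Summed FPKM of the 131 maternal (left) and 75 newly transcribed (right) znf genes against hours post fertilization, 1 library per point, with a line per genotype and control set. The newly transcribed sum at 4 hpf was 1001 and 951 FPKM in wildtype, 1132 FPKM in Tgnup133, 364 FPKM in Melys and 164 FPKM in MZnup133.

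In MZnup133 the newly transcribed znf pool was small at 4 hpf and larger at 4.5 hpf. So that no library served both the class and the comparison, the classes were made again from the elys set wildtype alone. This gave 75 newly transcribed and 128 maternal members. The limit for inclusion still used all 15 libraries, the compared ones among them, so the choice of members was not free of the comparison. The sums and counts by class are therefore a description. The newly transcribed sum was then 16.6% of matched wildtype at 4 hpf and 48.1% at 4.5 hpf. Of the 75, 66 were lower than matched wildtype at 4 hpf and 62 at 4.5 hpf, with median differences of -1.16 and -1.21 (log2). The medians of all genes at those stages were 0.13 and 0.29. The 128 maternal members had medians of 0.34 and 0.49, with 91 and 92 higher. With median-ratio scaling the medians were -1.29 and -1.51 for the newly transcribed and 0.18 and 0.20 for the maternal members. At 3 hpf the newly transcribed median was 0.00, where most of these genes were near 0 in both libraries. In FPKM as reported, the 17 members present at 3 hpf and rising had medians of -0.59, -1.05 and -0.75 at 3, 4 and 4.5 hpf. Of these 17, 11, 12 and 14 were lower at those stages.

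The best expressed of these genes were furthest from wildtype at 4 hpf. The 19 at 20 FPKM or more in the elys set wildtype at 4.5 hpf were at 10.2% of the matched wildtype sum at 4 hpf and at 40.6% at 4.5 hpf, and all 19 were lower at both stages. The 21 between 5 and 20 FPKM were at 29.4% and 63.7%, with 18 and 19 lower. The 35 under 5 FPKM were at 60.0% and 80.1%, with 29 and 24 lower. By median difference the top 2 bands were apart at 4 hpf, at -3.11 and -1.35 (log2), but alike at 4.5 hpf, at -1.44 and -1.41. Their order at 4.5 hpf thus shows in the sums only. This order by level is a description, with no test.

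At 4 hpf 32 members passed the threshold in MZnup133, 7 higher and 25 lower, against 9.86% of all genes tested (4.65% higher and 5.2% lower). At 4.5 hpf there were 51, of which 25 were higher and 26 lower, against 21.5% of all genes (13.5% higher and 8.0% lower). By class, all 21 newly transcribed members called at 4 hpf and all 22 called at 4.5 hpf were lower. The elys set wildtype enters the fit at single stages, so it served both the class and the call, and the counts by class at single stages are a description. The called maternal members went the other way, with 6 higher against 2 lower at 4 hpf and 24 against 2 at 4.5 hpf. With median-ratio scaling the split at 4.5 hpf was 11 higher and 41 lower, against 8.08% higher and 12.5% lower over all genes. The median of all genes, 0.26 as reported, became 0.00 with that scaling. With any 1 wildtype library left out, no member was called at either stage, but neither was any other gene (0 of 13493). Those fits have fewer residual degrees of freedom.

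The members lowest in MZnup133 at 4 hpf were znf1044 (-4.69 ± 0.48), znf999 (-4.44 ± 0.41), znf1156 (-4.24 ± 0.36), znf995 (ENSDARG00000112126, -4.04 ± 0.37) and znf1137 (ENSDARG00000086296, -3.85 ± 0.28), as log2 differences with SE. They were followed by znf1063, znf1042, znf1004, znf1096 and znf1145, at -3.70 to -3.20. Of these 10, znf1137, znf1063, znf1042, znf1004, znf1096 and znf1145 had left that group of the 10 lowest by 4.5 hpf. Their MZnup133 levels rose between 4 and 4.5 hpf, for example from 4.77 to 37.2 FPKM for znf1145. At 4.5 hpf the lowest were znf995 (ENSDARG00000112126), znf1156, znf1044, znf999, znf1146 (ENSDARG00000096014), znf185, znf1055, znf1072, znf1056 and znf1062, at -4.36 to -2.33. Of these, znf1146 was included only through wildtype and Tgnup133 libraries and had to be lower. Its call carries no weight, although it is among the 26 called lower at 4.5 hpf. The levels of znf185 given above were also highest in wildtype and Tgnup133 at 4.5 hpf. Its inclusion leaned on these libraries, so its difference is a description.

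In Melys the newly transcribed pool was also reduced at 4 and 4.5 hpf. With classes from the nup133 set wildtype, 80 members were newly transcribed, and their sum was 37.8% of matched wildtype at 4 hpf and 43.8% at 4.5 hpf. Of these 62 and 59 were lower, with median differences of -0.89 and -0.91 (log2), against 0.07 and 0.15 for all genes. The 127 maternal members had medians of 0.12 and 0.02, the second of which turned to -0.15 with median-ratio scaling. At 4 hpf 5 members were called, 1 higher and 4 lower (1.7% of all genes, with 0.556% higher and 1.14% lower), and at 4.5 hpf 6, 3 in each direction (2.97% of all genes, with 1.36% higher and 1.62% lower). With median-ratio scaling the 4 calls at 4 hpf were all lower, and of 12 calls at 4.5 hpf 9 were lower. All genes under that scaling were 0.356% higher and 1.08% lower at 4 hpf. At 4.5 hpf they were 1.25% higher and 2.74% lower. Leaving out any 1 wildtype library left no member called at either stage. Over all genes it left 0 to 4 calls at 4 hpf and 0 at 4.5 hpf.

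The Melys calls at 4 hpf were znf999 (-3.36 ± 0.41), znf710a (-3.28 ± 0.23), znf1055 (-2.88 ± 0.30), znf1004 (-1.40 ± 0.16) and znf622 (0.90 ± 0.11), as log2 differences with SE. At 4.5 hpf znf1096 (-1.98 ± 0.27), znf710a, znf1004 and znf622 were called. So were znf1150 and znf1047 (ENSDARG00000101497), which were at 33.8 and 17.0 FPKM in the Melys library at 4.5 hpf and listed at 0 in the other 14. They reached the limit for inclusion only through that library, so 2 of the 3 members higher at 4.5 hpf had to differ.

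The summed zygotic markers were also lower in MZnup133 and Melys than in wildtype. The 5 zygotic markers tbxta, mxtx2, krt4, sox3 and noto summed to 228 and 192 FPKM in wildtype at 4 hpf, 253 FPKM in Tgnup133, 99.8 FPKM in Melys and 60.1 FPKM in MZnup133. At 4.5 hpf the sums were 392 and 313 FPKM in wildtype, 460 FPKM in Tgnup133, 177 FPKM in Melys and 116 FPKM in MZnup133. At 4.5 hpf the marker sum was thus lowest in MZnup133 and highest in Tgnup133, while the newly transcribed znf sum was lowest in Melys (670 FPKM, against 935 FPKM in MZnup133). This order compares lines of different control sets. Matched wildtype was also lower for Melys, at 1495 FPKM against 1945 FPKM for MZnup133. With classes from the other set, the sums were 43.8% of matched wildtype in Melys and 48.1% in MZnup133. The marker mxtx2 was not lower in Melys: it was 33.3 FPKM at 4 hpf, with matched wildtype at 30.2, and 61.2 FPKM at 4.5 hpf, with matched wildtype at 52.8. Mitochondrially encoded RNA took 4.76% to 6.53% of the FPKM in the 6 MZnup133 and Melys libraries and 7.29% to 10.2% in the others. Their part in the znf differences was not tested. In whole embryos, fewer expressing cells and less RNA per cell cannot be told apart.

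In Tgnup133 the summed newly transcribed pool was above matched wildtype at 4 hpf and below it at 4.5 hpf. With classes from the elys set wildtype, the sum was 112% of matched wildtype at 4 hpf and 85.2% at 4.5 hpf. The medians were -0.13 and -0.25 (log2), with 40 and 51 of 75 lower, against -0.04 and -0.06 for all genes. At 4.5 hpf the 19 best expressed genes were at 90.2% of matched wildtype (11 lower), the 21 between 5 and 20 FPKM at 74.9% (15 lower) and the 35 under 5 FPKM at 63.2% (25 lower). Over the 3 stages no member passed the threshold in limma, against 1.95% of all genes (0.8% higher and 1.15% lower), and 27 of 233 members had an unadjusted p under 0.05. The share of all genes under that unadjusted p was not counted. Without the 3 hpf libraries 4 members were called, and 90 of all 13493 genes. No other tool was run.

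A small group of newly transcribed members departed from that picture. It was noticed after the values were seen and is given without a test. Of the 37 at 5 FPKM or more in both wildtype libraries at 4.5 hpf, 5 were under 10% of matched wildtype in Tgnup133, namely znf1043, znf1044, znf1047 (ENSDARG00000092938), znf995 (ENSDARG00000112126) and znf999. The 37 were chosen by the same wildtype values that the lines are compared with, which favours low shares. At 4.5 hpf znf1044 was at 25.8 and 53.8 FPKM in the wildtypes, listed at 0 in Tgnup133, at 0.501 FPKM in MZnup133 and at 5.87 FPKM in Melys. At the same stage znf999 was at 18.5 and 36.0 FPKM in wildtype, 1.03 FPKM in Tgnup133, 0.265 FPKM in MZnup133 and 6.59 FPKM in Melys. Likewise znf995 (ENSDARG00000112126) was at 18.2 and 31.7 FPKM in wildtype, 0.214 FPKM in Tgnup133, listed at 0 in MZnup133, and at 12.3 FPKM in Melys. In all of these the elys set wildtype was the higher of the pair, and Melys kept more than both nup133 lines.

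The copies named znf995 behaved apart. At 4.5 hpf znf995 (ENSDARG00000109864) was at 52.3 and 29.8 FPKM in wildtype, 49.8 FPKM in Tgnup133 and 34.1 FPKM in MZnup133, where the other copy was at or near 0. Tgnup133 and MZnup133 share their wildtype libraries. Of the 37 genes, 8 were under 10% of wildtype in MZnup133 at 4.5 hpf, and 3 in Melys (znf1001, znf1099 and znf1146). Both counts hold znf1146 (ENSDARG00000096014), which was included only through wildtype and Tgnup133 libraries. Because the 37 were chosen by their wildtype level, these counts are a description.

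The reverse was also seen. At 4.5 hpf znf1127 was at 101 FPKM in MZnup133, against 36.0 and 12.4 FPKM in wildtype, 6.05 FPKM in Tgnup133 and 25.0 FPKM in Melys. The level of znf1050 was 61.2 FPKM in MZnup133 against 25.7 and 1.95 FPKM in wildtype, and that of znf1058 25.4 FPKM against 11.3 and 4.02 FPKM. These genes differed widely between the wildtype libraries themselves, and none passed the threshold at 4.5 hpf.

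Over the 3 stages together, 45 members differed between MZnup133 and wildtype, 21 higher and 24 lower, against 22.0% of all genes tested (13.7% higher and 8.32% lower). The share of members called, 45 of 233, is near that background. By classes from the other set, 12 of 75 newly transcribed members were lower and none higher, and 19 maternal members were higher and 6 lower. Of the 17 members present at 3 hpf and rising, 6 were lower and 1 was higher. The lower calls were thus not confined to the newly transcribed class. Median-ratio scaling gave 17 higher and 30 lower, against 10.2% higher and 12.1% lower over all genes. Without the 4 hpf libraries 1 member was called, without the 4.5 hpf libraries 8, and without the 3 hpf libraries 82. Over all genes those counts were 232, 771 and 4020, in place of 2968.

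The most complete loss was that of znf1156, a maternal member. It was at 13.8, 21.3 and 17.8 FPKM in matched wildtype, at 16.2, 14.1 and 19.4 FPKM in the other wildtype, at 9.26, 15 and 15.7 FPKM in Tgnup133, and at 12.1, 14.9 and 19.7 FPKM in Melys. It was listed at 0 in all 3 MZnup133 libraries. The groups did not overlap, and the fitted difference was -4.20 ± 0.22 (log2, SE; adjusted p = 6.14e-06, limma).

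The opposite was seen for znf1011 (ENSDARG00000111799), which was listed at 0 in 5 of 6 wildtype libraries, with 0.355 FPKM in the other, and in all Tgnup133 libraries. It was at 11.1, 5.95 and 4.78 FPKM in MZnup133 and at 0, 1.01 and 1.24 FPKM in Melys. It reached the limit for inclusion only through MZnup133, so it had to be higher there, and it is given without a test although it is among the 21. The maternal member znf1028 was at 46.9, 41.4 and 34.6 FPKM in MZnup133, against 17.7, 10.2 and 3.55 FPKM in matched wildtype (2.08 ± 0.30; adjusted p = 0.00165, limma). Its MZnup133 level lay above the other 12 libraries at each stage.

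Next in size among the higher members were znf45l, znf1134, znf1163, znf1158, znf991, znf367, znf800b and znf1003, at 1.77 down to 1.32 (log2). Human ZNF800 restrains endocrine differentiation in gut organoids, and znf800b was at 24.0, 26.7 and 18.5 FPKM in MZnup133 and 4.63 to 10.8 FPKM in the other 12 libraries. The largest differences among the lower members, after znf1156, were those of znf999, znf995 (ENSDARG00000112126), znf1117, znf1183 (ENSDARG00000111614), znf1004, znf1081, znf569l, znf1025 and znf996. The call of znf1183 rested on 30.7 FPKM in 1 library, the nup133 set wildtype at 4.5 hpf, where the elys set had 3.52 FPKM.

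At 4.5 hpf several genes that fall in wildtype stood higher in MZnup133. These included znf423 (12.3 FPKM against 0.647 and 0.122 FPKM; 3.32 ± 0.55), znf395b (11.7 FPKM against 2.46 and 3.26 FPKM; 1.86 ± 0.35), znf990 (1.62 ± 0.34), znf609a (15.6 FPKM against 4.66 and 7.61 FPKM; 1.47 ± 0.21) and znf131 (33.8 FPKM against 11.4 and 15.4 FPKM; 1.39). The wildtype fall and this difference share libraries, so the values stand side by side only.

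Over the 3 stages 17 members differed between Melys and wildtype, 2 higher and 15 lower, against 10.1% of all genes tested (5.48% higher and 4.65% lower). The share of members called was thus below that of all genes, while the share called lower was somewhat above it. Of the 15, 7 were newly transcribed and 7 maternal by the classes of the other set. Without the 4 hpf libraries 1 member was called, without the 4.5 hpf libraries 3, and without the 3 hpf libraries 24. Over all genes those counts were 147, 368 and 1257, in place of 1368.

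The member that marked Melys was znf710a. It was at 2.76, 4.22 and 10.4 FPKM in Melys, against 32.6, 46.9 and 39.3 FPKM in matched wildtype, a difference of -2.73 ± 0.33 (log2; adjusted p = 0.000960, limma). It was at 48.9, 43.4 and 41.5 FPKM in MZnup133. Melys was below every other library. The maternal member znf973 was listed at 0 in all 3 Melys libraries, and at 0.884, 2.02 and 2.57 FPKM in matched wildtype (-1.45 ± 0.32; adjusted p = 0.0195, limma). These wildtype levels are low, unlike those of znf710a, and a listed 0 may be a failed estimate.

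The 2 members higher in Melys were znf622 and znf326. Human ZNF622 and its yeast counterpart act in the late assembly of the large ribosomal subunit. Its zebrafish gene was at 89.9, 101 and 102 FPKM in Melys, against 43.4, 53.8 and 51.5 FPKM in matched wildtype (0.97 ± 0.11; adjusted p = 0.000804, limma). It was also higher in MZnup133 (0.48 ± 0.11; adjusted p = 0.0161, limma), at 92.9, 93.4 and 102 FPKM. The nup133 set wildtype, at 62.1 to 74.6 FPKM, lay above the elys set wildtype. Human ZNF326 couples splicing to elongation, and znf326 differed by 0.42 ± 0.11 in Melys (adjusted p = 0.0382, limma).

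**Figure D4:**
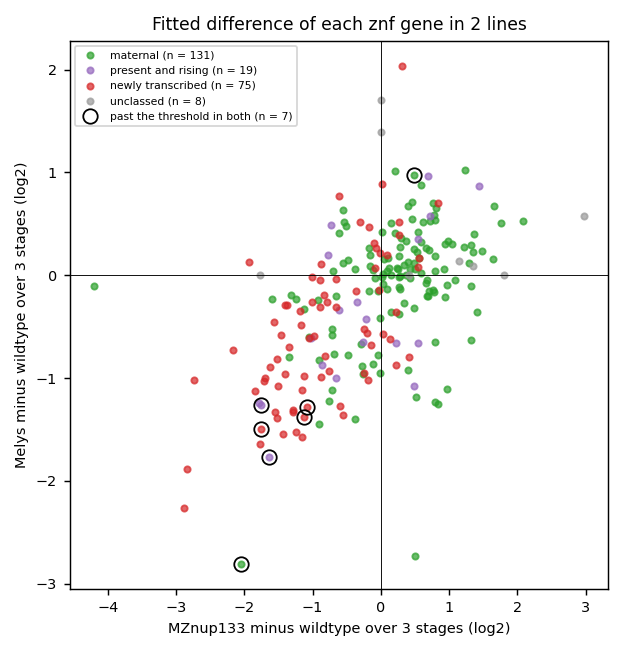
Fitted log2 difference from wildtype over 3 stages for each of the 233 znf genes, MZnup133 on the x axis and Melys on the y axis, coloured by class; open circles mark the 7 genes past the threshold in both lines. Newly transcribed genes lie mostly in the lower left, znf1156 lies far to the left and znf710a low on the y axis.

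MZnup133 and Melys have no library in common. Both lines called 7 members, which is 15.6% of the 45 MZnup133 calls and 41.2% of the 17 Melys calls. Over all genes, 680 were called in both, 22.9% of the 2968 MZnup133 calls and 49.7% of the 1368 Melys calls, so the overlap of the members was no larger. These were znf1025, znf1097, znf1117, znf1136, znf569l and znf996, lower in both, and znf622, higher in both. The largest shared loss was that of znf1117, at 0.770, 2.66 and 2.33 FPKM in MZnup133 and 0, 1.13 and 4.6 FPKM in Melys. In wildtype it was at 12.2, 11.3 and 8.58 FPKM in one set and 12.6, 11.5 and 23.1 FPKM in the other. Tgnup133, at 2.58, 5.0 and 4.86 FPKM, also lay below every wildtype library.

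Tested directly, the MZnup133 and Melys differences were unequal for 6 members, against 5.27% of all genes (2.76% higher and 2.51% lower). They were znf1156, lower in MZnup133 by 4.10 on the log2 scale, and znf710a, znf1011 (ENSDARG00000111799), znf292a, znf1154 (ENSDARG00000104065) and znf1007, whose MZnup133 difference was the higher. Of these, znf1011 was included only through its MZnup133 values and had to differ. No newly transcribed member was among them.

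**Figure D5:**
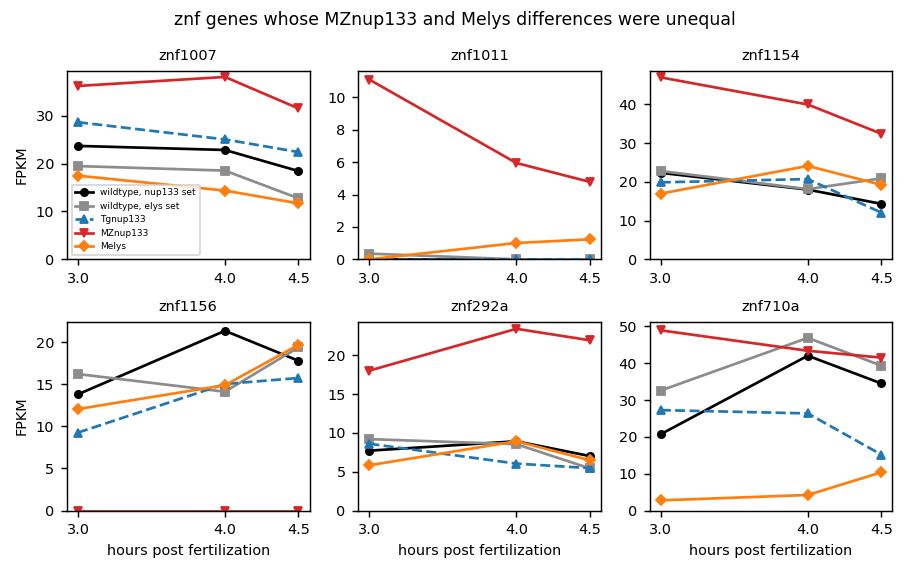
FPKM against hours post fertilization for the 6 znf genes whose MZnup133 and Melys differences were unequal, with 1 line per genotype and control set and 1 library per point. MZnup133 is at 0 throughout for znf1156 and above the others for znf1011, znf1154 and znf292a, while Melys is lowest for znf710a.

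By role, 17 of 30 listed chromatin and transcription znf genes were measured. From 3 to 4.5 hpf in wildtype 1 rose (znf281a) and 7 fell, with a median of -0.73 (log2) against -0.16 for all genes, of which 14.1% rose and 22.8% fell. In MZnup133 over the 3 stages, znf131 and znf143a were higher and znf76 and znf384l lower, while 13.7% of all genes were higher and 8.32% lower. Human ZNF143 and ZNF76 are related activators that bind many promoters. The zebrafish genes znf143a and znf76 moved in opposite directions. The first was at 28.5, 40.9 and 42.5 FPKM in MZnup133 and 24.5, 26.2 and 18.2 FPKM in matched wildtype. The second was at 3.88, 10.5 and 6.40 FPKM against 12.9, 15.1 and 11.8 FPKM. Both calls were close to the threshold (adjusted p = 0.0488 for znf143a and 0.0456 for znf76, limma). In Melys 1 of the 17 was lower, against 4.65% of all genes, namely znf410, whose human protein controls a chromatin remodeller gene (-1.40 ± 0.31; adjusted p = 0.0226, limma).

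Of 21 listed genes for RNA binding, ribosomes, ubiquitin, SUMO and the spindle, 17 were measured. In wildtype 3 rose (znf207a, znf318 and znf346) and 4 fell, among them znf598, whose human protein marks collided ribosomes; these 7 of 17 are near the 37.0% of all genes called. In MZnup133 znf106b, znf706 and znf622 were higher and znf207a was lower (-0.38 ± 0.09; adjusted p = 0.0153, limma). In Melys znf622 and znf326 were higher and znf207b lower. Over all genes 22.0% were called in MZnup133 and 10.1% in Melys.

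Other genes of the zinc finger kind were read from a symbol pattern (klf, sp, zic, zbtb and the like), with 91 of 143 measured. The pattern also takes in a few genes of other kinds, such as zfp36 relatives and zbtb8os. In wildtype from 3 to 4.5 hpf 24 rose and 19 fell, against 14.1% and 22.8% of all genes. By 4 hpf 16 had risen and 0 had fallen, against 3.61% and 3.34%. In MZnup133 over the 3 stages 14 were higher and 5 lower, against 13.7% and 8.32% of all genes. In Melys 3 were higher and 3 lower over the 3 stages, against 5.48% and 4.65%. At 4 hpf alone 0 were higher and 12 lower in MZnup133, against 4.65% and 5.2% of all genes. At 4.5 hpf 8 were higher and 11 lower there, against 13.5% and 8.0%. An excess of lower calls in MZnup133 at 4 hpf was thus not particular to the znf members. Of 17 genes for heterochromatin proteins that work with zinc finger repressors in mammals, 3 rose and 4 fell in wildtype from 3 to 4.5 hpf. A single one was higher in each of MZnup133 and Melys over the 3 stages, and none lower. These heterochromatin counts are near or under the shares of all genes given above for the same comparisons.

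The 8 members without a class were znf1011 (ENSDARG00000111799), znf1047 (ENSDARG00000101497), znf1100, znf1150, znf1154 (ENSDARG00000099061), znf365, znf804b and znf977, and several rested on very few libraries. In all, 6 members were listed at 0 in 12 or more of the 15 libraries. Besides znf1150, znf1047 (ENSDARG00000101497) and znf1146 (ENSDARG00000096014), they were znf1154 (ENSDARG00000099061), at 38.7 FPKM in the nup133 set wildtype at 4 hpf and listed at 0 elsewhere, znf804b, at 41.7 FPKM in MZnup133 and 8.18 FPKM in Tgnup133 at 3 hpf and 11.6 FPKM in Tgnup133 at 4 hpf, and znf977, at 9.54 FPKM in the nup133 set wildtype at 4 hpf and 23.8 FPKM in MZnup133 at 4.5 hpf. By contrast, 135 members were above 0 in every library.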

How the data were processed

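Poly(A) RNA of 15 whole-embryo libraries was used as 1 table of FPKM per gene and library, computed by the authors and deposited with gene symbols. Tools named per the submitters' processing notes were STAR 2.5.3a, Trim Galore and Cufflinks 2.2.1, with the build GRCz11; their order and options are not stated there. Of 23800 lines, 74 repeats were dropped. Wildtype columns were assigned to their control set by the leading number they share with the mutant columns. Without counts, depth, intervals and floors cannot be given, and a value of 0 may be a failed estimate.

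Tests used limma 3.58.1 in R 4.3.3 on log2(FPKM + 1) for the 13493 genes averaging 1 FPKM or more, with a variance trend, two-sided, Benjamini-Hochberg adjusted, at a threshold of 0.05. Single stages came from a fit of genotype-by-stage means with a control set term (2 residual and 2.36 prior degrees of freedom), and comparisons over 3 stages from a fit with a level per set and stage and 1 effect per genotype (6 and 3.52). Fold changes on this scale understate low genes. The code was tested on simulated data.

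Members and lists were chosen with earlier results of these data known. The text names up to 10 called members per direction and comparison, every newly transcribed member and members of the role lists. Of 233 members, 222 identifiers were found in the reference name table and 135 symbols in the RefSeq table, so gene neighbours were not compared. Genome coordinates, promoters and protein sequences were not used here. Alternatives were another pseudocount, no filter, 2 other scalings, no control set term, other class limits and leaving out libraries.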

Additional observations from a re-analysis of the deposited data

Results flagged for a closer look

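For 6 members the difference from wildtype over 3 stages was unequal in the MZnup133 and Melys lines, by a test of the difference itself (limma, adjusted over 13493 genes). The same test called 5.27% of all genes, a larger share than 6 of 233 members. The MZnup133 difference minus the Melys difference was -4.10 ± 0.31 (log2, SE; adjusted p = 8.63e-05) for znf1156 and 3.23 ± 0.47 (adjusted p = 0.00370) for znf710a. It was 1.41 ± 0.34 for znf292a, 1.13 ± 0.25 for znf1154 (ENSDARG00000104065) and 0.89 ± 0.19 for znf1007, with adjusted p of 0.0434, 0.0303 and 0.0250. It was 2.40 for znf1011 (ENSDARG00000111799), which reached 1 FPKM on average only through its MZnup133 libraries, so that its test carries no weight. The lines have separate wildtype libraries. Levels of znf292a were 18.0, 23.4 and 21.9 FPKM in MZnup133 and 5.43 to 9.20 FPKM in the other 12 libraries.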

How the results depend on the processing

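All counts here are members past the threshold, except where all genes are named. With a pseudocount of 0.1 in place of 1, the counts that moved by over 1.5 times were MZnup133 at 4.5 hpf (26), Melys at 4 hpf (1) and 4.5 hpf (3), and wildtype 4 to 4.5 hpf (0). For all 13493 genes these counts were 2173, 120, 138 and 0. With no filter on low values there were 60 from 3 to 4.5 hpf, 10 from 3 to 4 hpf and 0 from 4 to 4.5 hpf in wildtype. For all 22874 genes in that fit these wildtype counts were 2723, 80 and 0. The same setting gave 17 and 8 for MZnup133 at 4 and 4.5 hpf, 2 for Melys at 4 hpf, 9 for Melys over 3 stages and 1 for Tgnup133. For all genes these were 695, 1084, 440, 1209 and 227. Median-ratio scaling gave 12 for Melys at 4.5 hpf, and 539 for all genes. Without the control set term there were 4 from 4 to 4.5 hpf in wildtype, 31 for MZnup133 at 4.5 hpf and 13 for Melys at 4.5 hpf. For all genes these were 353, 1987 and 524. Leaving out 1 wildtype library gave 44 to 81, 0 to 16 and 0 to 0 for the 3 wildtype steps, and 0 to 0 for MZnup133 and Melys at 4 and 4.5 hpf; each such fit has fewer residual degrees of freedom. Leaving out 1 stage gave 1 to 82 for MZnup133, 1 to 24 for Melys, 0 to 4 for Tgnup133 and 1 to 4 for the difference between MZnup133 and Melys. The cause of the other moves was not tested. Rescaling to the same sum moved no count by over 1.5 times. With class limits of 0.5 and 2 FPKM, 58 and 96 members were newly transcribed and 137 and 108 maternal. Of 1322 values for single named members under the alternatives, 692 stayed past the threshold, 630 lost it and 0 changed sign. No paired analysis was possible because the labels carry no replicate numbers, beyond the match of each line to the wildtype of its own set and stage that the fit over 3 stages makes. FPKM without counts leaves the precision of low members unknown.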
